A study of Mus musculus with 6 samples.

Results

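The genes described here are 10 genes of fast skeletal muscle fibres, followed across 6 RNA-seq libraries of the mouse cochlear modiolus. They are the symbols Acta1, Ckm, Myh1, Myh2, Myh4, Tnnt3, Tnni2, Tnnc2, Mylpf and Actn3, and all 10 had at least 1 listed transcript among the 33676 genes of the table. They were chosen by their counts in these same libraries, which were known to be high in 1 of them, so their levels and the differences between the groups are given as a description, without a test. The modiolus is the bony core of the cochlea that holds the spiral ganglion neurons (SGNs), the first neurons of the hearing pathway. Control libraries came from 3 saline-treated samples. Degenerated libraries came from 3 samples of the model of SGN loss, which the study placed on day 30 after 1 g/kg kanamycin under the skin and 0.4 g/kg furosemide into the abdomen, given 30 min later. All were C57BL/6 by the labels, and the study used male mice of 8 weeks for the model. The 2 drugs ablate hair cells, so that SGNs are lost secondarily, and the library is bulk tissue although the labels give the cell type as spiral ganglion neuron.

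A muscle fibre shortens when the heads of myosin heavy chains on the thick filament pull on actin in the thin filament. Calcium permits this by binding the troponin complex on the thin filament, and creatine kinase refills the ATP that the heads use. Fast fibres build these parts from their own gene copies, with Myh2, Myh1 and Myh4 as the heavy chains of type IIa, IIx and IIb fibres.

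Members lay on 5 chromosomes of GRCm38. Myh2 (chr11:67171027-67197517), Myh1 (chr11:67200052-67224575) and Myh4 (chr11:67238029-67260446) stood in a row on the plus strand of chromosome 11, with gaps of 2535 and 13454 bases. On chromosome 7, plus strand, were Tnni2 (chr7:142441808-142444410), Tnnt3 (chr7:142498836-142516009), Mylpf (chr7:127208890-127214298) and Ckm (chr7:19404776-19422841). Acta1 (chr8:123891769-123894751), Tnnc2 (chr2:164777161-164779967) and Actn3 (chr19:4861216-4877909) were on the minus strand.

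The stretch of 250 bases before the RefSeq start (build GRCm38.p6) is shown for the 3 neighbouring heavy chain genes, because Myh1 and Myh4 were abundant in 1 library where Myh2 had no count, and for the skeletal actin gene Acta1, counted in every library. Capitals mark matches on either strand to an E-box (CANNTG), a MEF2 box, a CArG box, the TATA box letters TATAAA or an MCAT element (CATTCC). The Acta1 window is chr8:123894776-123895025 on the minus strand, and those of Myh2, Myh1 and Myh4 are chr11:67170777-67171026, chr11:67199852-67200101 and chr11:67237562-67237811 on the plus strand.
Acta1: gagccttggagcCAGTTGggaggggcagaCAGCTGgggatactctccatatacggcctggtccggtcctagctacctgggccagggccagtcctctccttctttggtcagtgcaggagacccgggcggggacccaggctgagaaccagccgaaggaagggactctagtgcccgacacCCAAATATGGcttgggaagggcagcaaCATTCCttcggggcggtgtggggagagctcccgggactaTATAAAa
Myh2: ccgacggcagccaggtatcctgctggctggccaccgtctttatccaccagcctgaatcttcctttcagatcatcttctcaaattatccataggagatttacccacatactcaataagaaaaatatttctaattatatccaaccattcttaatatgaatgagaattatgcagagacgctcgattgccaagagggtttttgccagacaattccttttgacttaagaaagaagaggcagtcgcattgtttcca
Myh1: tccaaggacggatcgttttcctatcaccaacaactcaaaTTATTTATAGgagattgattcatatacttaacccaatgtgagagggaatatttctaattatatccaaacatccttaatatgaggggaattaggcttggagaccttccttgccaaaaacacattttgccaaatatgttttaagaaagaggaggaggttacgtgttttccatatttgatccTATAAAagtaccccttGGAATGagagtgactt
Myh4: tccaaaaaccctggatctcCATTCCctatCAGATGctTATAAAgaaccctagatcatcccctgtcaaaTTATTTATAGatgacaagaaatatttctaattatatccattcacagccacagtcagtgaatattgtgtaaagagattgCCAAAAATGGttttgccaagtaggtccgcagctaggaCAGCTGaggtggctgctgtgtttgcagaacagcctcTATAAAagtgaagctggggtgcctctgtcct
The Myh4 window held a match to each of the 5 motifs, and the Myh2 window held none. Windows end at the RefSeq start, which need not be the start of a listed transcript. The listed transcript Myh2-201 starts at chr11:67171220, and Myh4-201 and Myh4-202 start at chr11:67238029 and chr11:67240597, all downstream of their windows. Bases between a window and these starts were not searched, so the absence of a match in Myh2 holds for this window only. A CArG box, to which serum response factor binds, lay in the windows of Acta1 and Myh4, at positions -73 to -64 and -104 to -95 from the start. Myh1 and Myh4 each had a MEF2 box, at -211 to -202 and -182 to -173, and each of these boxes overlapped a TATAAA. RefSeq windows were matched for 7 members (Acta1, Ckm, Myh1, Myh2, Myh4, Tnnc2 and Mylpf). Of these 7, 5 had an E-box, 3 had TATAAA, 3 an MCAT element, 2 a MEF2 box and 2 a CArG box. Among all 32851 windows of this length the shares were 66.2% for the E-box, 12.4% for TATAAA, 12.6% for the MCAT element, 2.92% for the MEF2 box and 1.47% for the CArG box. A match is a description of letters and not a bound site. Whether the matches bear on the counts was not tested.

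The table held 12480876 to 15549319 counts per library, over its listed transcripts only, and any pair of libraries within a group correlated at a Pearson r of 0.913 to 0.948 on the log2(CPM + 1) scale, where CPM is the TMM-scaled count per 1000000 counts. Nothing in the sources says whether the 3 samples of a group were separate animals, so the spread between them may be technical. One library stood apart for the genes described here. Control replicate 3 held 6319 of their counts and the other 5 libraries together 331, so that 95.0% of all member counts came from it. For this reason group values of the members are given with and without control replicate 3. Those of some other genes are given with all libraries only.

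Added up over the 10 genes, the counts were 64, 105 and 6319 in control replicates 1, 2 and 3, and 77, 16 and 69 in degenerated replicates 1, 2 and 3. In the same order the summed levels were 4.23, 7.41 and 402 CPM, then 5.26, 1.12 and 5.44 CPM. The share of the library taken by these genes was 0.0407% in control replicate 3 (exact 95% interval 0.0397% to 0.0417%), and 0.000112% to 0.000729% in the others. Intervals cover counting error only. Control replicate 3 was 86.1-fold above the other 5 libraries pooled (exact 95% counting interval 77.1 to 96.5). The other 2 control libraries and the 3 degenerated libraries overlapped.

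**Figure D1:**
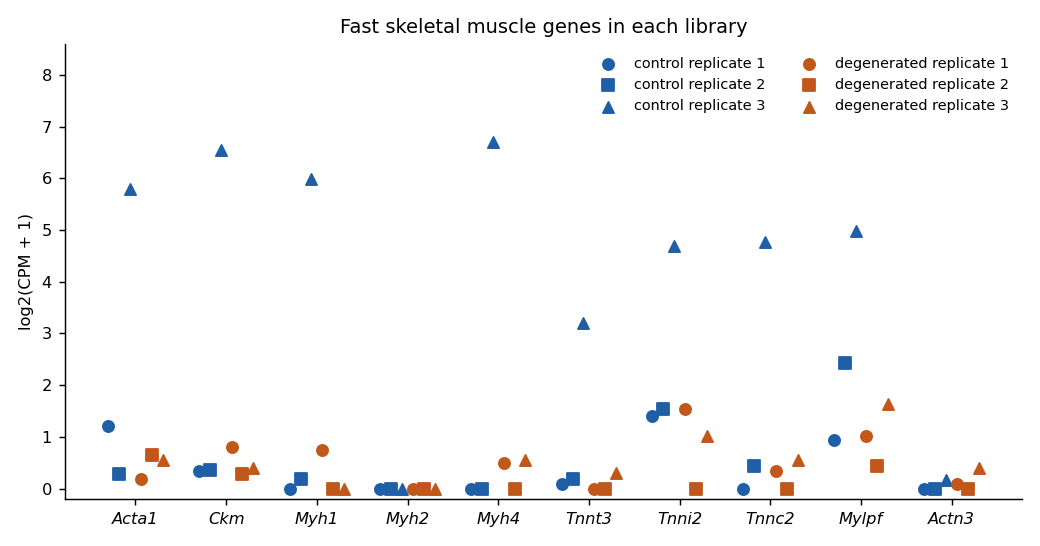
Level of each of the 10 genes in each of the 6 libraries, as log2(CPM + 1) on the vertical axis, with blue for control and orange for degenerated libraries and a marker shape for each replicate. Control replicate 3 (blue triangles) is the highest library for 8 genes, while Myh2 is at 0 in every library and Actn3 is near 0 in all.

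Among the motor proteins of the thick filament, Myh4, the heavy chain of the fastest fibres, had 1618 counts in control replicate 3. It had 0 in control replicates 1 and 2, and 6, 0 and 6 in degenerated replicates 1, 2 and 3. That is 608-fold above the other 5 libraries pooled (347 to 1180), which was the widest gap among the members. Myh1 had 0, 2 and 978 counts in the control and 10, 0 and 0 in the degenerated libraries, and was 368-fold higher in control replicate 3 (210 to 714). Both genes were therefore at or near the floor outside 1 library, and neither separated the groups otherwise.

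Myh2, the heavy chain of the slowest and most oxidative of the fast fibres, had 0 counts in all 6 libraries. A count of 0 allows up to 3 counts, which is 0.191 to 0.236 CPM per library. For the Myh2 gene 2 of its 3 annotated transcripts were listed, Myh2-201 and the retained intron Myh2-202. The heavy chains share much sequence: 27.2% of the 50-base windows of Myh2-201 occur in transcripts of another gene, 19.9% in those of Myh1. For Myh1-201 the share was 27.4%, with Myh2 as the closest gene, and for Myh4-202 it was 19.2%, with Myh1 as the closest. The sources used here do not say how the counting treated reads from shared stretches, so the split of counts among the 3 heavy chains is uncertain.

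Mylpf, the fast regulatory light chain that sits on the neck of the heavy chain, was present in every library. Its counts were 14, 62 and 478 in the control libraries and 15, 5 and 27 in the degenerated libraries. Control replicate 3 was 17.5-fold above the other 5 pooled (14.4 to 21.6) and 6.95-fold above the next library, control replicate 2. Mylpf was the member with the smallest gap among the 8 genes that were highest in control replicate 3.

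Of the thin filament, Acta1 encodes skeletal muscle alpha-actin. It was counted in every library, with 20, 3 and 857 counts in the controls and 2, 8 and 6 in the degenerated libraries. Its ratio of control replicate 3 to the other 5 libraries was 99.1 (71.9 to 140). Control replicate 1 came next, at 1.32 CPM against 54.6 CPM in control replicate 3.

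The 3 fast troponin subunits were also highest in control replicate 3. Tnnc2, which binds calcium, had 0, 5 and 412 counts in control and 4, 0 and 6 in degenerated libraries, a ratio of 124 (74.3 to 223). Tnnt3, which ties the complex to tropomyosin, had 1, 2 and 128 counts in control and 0, 0 and 3 in degenerated libraries, a ratio of 96.3 (43.0 to 267). Tnni2, the inhibitory subunit, differed from the other two in its level outside control replicate 3. It had 25, 27 and 391 counts in the control libraries and 28, 0 and 13 in the degenerated libraries, so that its ratio was 19.0 (15.1 to 24.0). Degenerated replicate 2 was the one library without a Tnni2 count.

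Counts of Tnnc2 carry a limit of their own, since 592 of its exon bases, 74.0%, overlap exons of Ube2c on the opposite strand. Ube2c, a ubiquitin-conjugating enzyme of dividing cells, had 51, 1699 and 842 counts in the control and 186, 94 and 636 in the degenerated libraries, with its highest value in control replicate 2, where Tnnc2 had 5. The sources used here do not say whether the counting used strand, and without strand, reads from the overlap cannot be told apart. Ckm shares 15.5% of its exon bases with A930016O22Rik on the opposite strand, which had 45 counts in control replicate 3 and 10 to 17 elsewhere.

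Ckm, the muscle creatine kinase, had 4, 4 and 1455 counts in control and 11, 3 and 4 in degenerated libraries, a ratio of 253 (172 to 388). Actn3, the alpha-actinin of fast-fibre Z-discs, did not share the pattern. It had 0, 0 and 2 counts in control and 1, 0 and 4 in degenerated libraries, and its ratio of 1.81 had an interval from 0.172 to 11.02. For the Actn3 gene 1 of 2 annotated transcripts was listed, a retained intron of 982 bases, and its main coding transcript was not analysed here.

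Levels of different genes were compared per length, as the count over the length of each listed transcript, scaled to a sum of 1000000 over the listed transcripts. In control replicate 3 the per-length level was 72.6 for Mylpf, 70.9 for Tnni2, 68.2 for Acta1, 67.9 for Tnnc2 and 61.2 for Ckm. The heavy chains followed with 31.5 for Myh4 and 19.1 for Myh1, then Tnnt3 with 15.8, Actn3 with 0.234 and Myh2 with 0. Being 1 library, control replicate 3 gives no replicate spread for this order, and neighbours in it are not told apart. Among protein-coding genes with a listed transcript, the 5 highest members lay at the 85.9 to 88.2 percentile of per-length level in that library. In the other 5 libraries these 5 genes lay between the 11.3 and 60.1 percentile, where genes at 0 sit at about the 11th. So in control replicate 3 these 5 genes ranked above most protein-coding genes, and elsewhere Mylpf did so in control replicate 2 alone.

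At the level of single transcripts, the table listed 30 of the 59 annotated transcripts of the members. Of these, 26 had a count, 22 were highest in control replicate 3 and 11 had counts there only. Myh4-202 had 1594 counts in control replicate 3 and 0 in the other libraries, while Myh4-201 had 24 there and 6 in each of degenerated replicates 1 and 3. Myh1-201 had 852 counts in that library alone, and the few Myh1 counts elsewhere were all on Myh1-203. The heavy chain counts outside control replicate 3 thus lay on transcripts other than the main ones within it.

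Tnni2 showed the same kind of divide between transcripts. Tnni2-207 had 152 counts in control replicate 3 and 0 elsewhere, and Tnni2-201 had 149 there and 8 in degenerated replicate 1. Tnni2-206 had 25, 26 and 77 counts in the control and 16, 0 and 13 in the degenerated libraries, which made up most Tnni2 counts outside control replicate 3. Mylpf-201 had 1, 38 and 469 counts in control and 13, 1 and 20 in degenerated libraries. Mylpf-205 had 13, 24 and 9 in control and 2, 4 and 7 in degenerated libraries, and control replicate 3 was not its highest library. Tnnt3, whose exons are joined in many combinations, had 9 of 27 annotated transcripts listed. In control replicate 3 its counts were spread over Tnnt3-224 with 48, Tnnt3-201 with 35, Tnnt3-216 with 23 and Tnnt3-214 with 13. Near-identical transcripts of 1 gene share reads, so these splits depend on how the counts were assigned; the methods name StringTie for expression, and whether it made these counts is not stated.

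**Figure D2:**
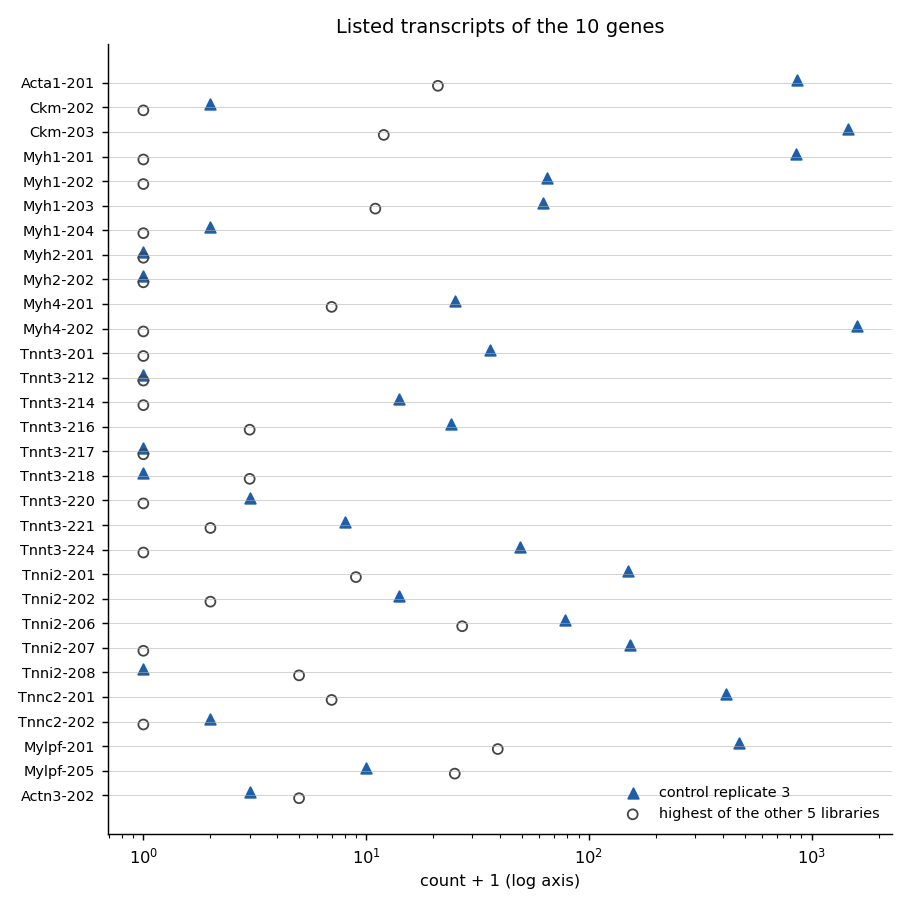
Counts plus 1, on a log axis, of the 30 listed transcripts of the 10 genes in control replicate 3 (filled triangles) and in the highest of the other 5 libraries (open circles). The widest gap is at Myh4-202, with 1594 counts against 0, and the order is the other way round at Mylpf-205, Actn3-202, Tnni2-208 and Tnnt3-218.

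Compared between the groups, the summed members averaged 138 ± 229 CPM in the control group (SD, n = 3) and 3.94 ± 2.44 CPM in the degenerated group (SD, n = 3). The control SD exceeded the control mean. The log2 ratio of the degenerated to the control mean was -5.13 with all libraries and -0.56 without control replicate 3, where the mean of the other 2 control libraries was 5.82 CPM. For single members the group difference also rested on that library: leaving it out, control replicates 1 and 2 held 23 Acta1 counts against 16 in the 3 degenerated libraries, 8 against 18 of Ckm, 2 against 10 of Myh1 and 0 against 12 of Myh4. The corresponding counts were 3 against 3 for Tnnt3, 52 against 41 for Tnni2, 5 against 10 for Tnnc2 and 76 against 47 for Mylpf. In bulk tissue, fewer cells of a type and less RNA per cell cannot be told apart.

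Only 2 of the 10 members, Tnni2 and Mylpf, passed edgeR's filter on low counts and were fitted with all genes. Of the other 8, Myh4, Ckm, Myh1 and Acta1 had more counts in total than either (896 to 1630), nearly all in 1 library. For Tnni2 the fitted log2 fold change of degenerated over control was -3.27 (SE 1.62), and -0.87 (SE 1.35) without control replicate 3. For Mylpf it was -3.35 (SE 1.38), and -1.19 (SE 0.99) without that library. Both genes kept a value below 0 without the library, with an SE of nearly its size or more.

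Other genes of muscle were followed in 7 lists with 92 genes, of which 74 had a listed transcript, 67 had counts and 49 were tested. Over all 14118 genes tested, edgeR's quasi-likelihood test called 0 genes at a Benjamini-Hochberg adjusted p under 0.05 (0.0% of those tested), with 1367 at an unadjusted p under 0.05, while DESeq2 called 383 and limma-voom 0. By the criteria of an unadjusted p under 0.01 and an absolute log2 fold change above 0.2, edgeR called 385 genes (2.73%), 284 upregulated (2.01%) and 101 downregulated (0.715%). None of the 49 other muscle genes passed that adjusted p with edgeR, a count of 0 (7 had an unadjusted p under 0.05, and DESeq2 called 2 and limma-voom 0). By the criteria 1 was upregulated and 2 were downregulated. The log2 fold change was below 0 in 39 of the 49, with a median of -0.32 against -0.003 for all genes tested. Without control replicate 3 it was below 0 in 34 of 51, with a median of -0.13 against 0.004.

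Control replicate 3 was also the highest library for 20 of these 49 genes (40.8%), against 18.5% of all genes tested. Counting every other muscle gene with a count, it was the highest for 30 of 67. The 18.5% covers tested genes only, so it is no like reference for this count, which includes genes below the filter.

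The nearest relatives of the members are the other fast fibre genes. Atp2a1, the calcium pump of the fast-fibre sarcoplasmic reticulum, had 57, 43 and 1887 counts in control and 79, 32 and 31 in degenerated libraries. Its log2 fold change was -3.65 (SE 1.57), and -0.03 without control replicate 3. Myl1, the fast essential light chain, had 1, 1 and 248 counts in control and 0, 2 and 14 in degenerated libraries. Both were highest in control replicate 3, as 8 of the members were. Of the 10 genes of this list with a listed transcript, 8 were highest in control replicate 3. Over all genes tested the share was 18.5%, though Myl1 and Ampd1 did not pass the filter. Atp2a1 and Myl1 were 22.3-fold and 14.3-fold above the next library there. The others of the 8 were 1.15-fold (Casq1) to 2.78-fold (Mylk2) above it, against at least 6.95-fold for the 8 members.

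Pvalb and Eno3 were the other most expressed genes of the fast fibre list with Atp2a1. Pvalb encodes parvalbumin, a calcium buffer of fast fibres and also of many neurons, and had 12347, 10208 and 12733 counts in control and 7483, 7225 and 4087 in degenerated libraries. The control libraries were all above the degenerated ones. Pvalb met the criteria at a log2 fold change of -0.81 (SE 0.20, unadjusted p 0.00633, edgeR adjusted p 0.342), and was at -0.79 (unadjusted p 0.0175) without control replicate 3, where it no longer met the criteria. Eno3, the muscle enolase, was highest in control replicate 3, and had a log2 fold change of -0.73 (SE 0.33), and -0.35 without that library.

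Among the shared sarcomere genes, the leiomodin Lmod3 met the criteria, at -1.74 (SE 0.35, unadjusted p 0.00237, edgeR adjusted p 0.277). Its counts were 31, 41 and 33 in control and 10, 10 and 9 in degenerated libraries, so the groups did not overlap and control replicate 3 was not the highest. Lmod3 was the single other muscle gene past the criteria without control replicate 3 (-1.82, unadjusted p 0.00696), where 1.76% of all genes were. It did not meet the criteria with the replicate block, or without control replicate 2, degenerated replicate 1 or degenerated replicate 2. The most expressed genes of the list were Tpm1, a tropomyosin, Neb, the ruler of the thin filament, and Ldb3 of the Z-disc, with log2 fold changes of -0.09, 0.06 and -0.32. Lmod2 had 23 counts in control replicate 3 and 0 in the other libraries.

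For excitation-contraction coupling, 0 of 5 tested genes met the criteria. Asph, Cacnb1 and Jph1, the most expressed of them, had log2 fold changes of -0.18, -0.32 and -0.10. Srl, the calcium-binding protein sarcalumenin, did not pass the filter on low counts, and had 278 counts in control replicate 3 against 1 to 7 elsewhere. Cacna1s, the voltage sensor of the muscle triad, had 71 counts there against 1 to 7 elsewhere.

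The summed level of the slow fibre genes was 1075, 1137 and 1170 CPM in the controls, then 1313, 1262 and 1239 CPM in degenerated libraries. This sum did not follow that of the members. Most of it came from the calcium pump Atp2a2 and the tropomyosin Tpm3, which many cell types use. Atp2a2 and Tpm3 had log2 fold changes of 0.24 and 0.19. Mybpc1, the third most expressed, was at -1.32 with all libraries and -0.80 without control replicate 3. Mybpc1 and Myl3 were 2.31-fold and 2.41-fold above the next library in control replicate 3, and Myl2 had 21 counts there and 0 elsewhere. The other slow fibre genes with counts were not highest in that library. Tnni1, the slow-fibre counterpart of Tnni2, was upregulated by the criteria. It had 4, 6 and 2 counts in control and 35, 30 and 12 in degenerated libraries, a log2 fold change of 2.71 (SE 0.62, unadjusted p 0.00456, edgeR adjusted p 0.320), and 2.36 (unadjusted p 0.0159, past the criteria no longer) without control replicate 3. Myh7, the slow heavy chain, had 0 counts in every library.

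Of the developmental and specialised genes, Tnnt2, Myh6 and Myl4 were the most expressed, with log2 fold changes of 1.47, 0.32 and -0.53. Actc1, the cardiac actin that developing muscle also uses, had 0, 2 and 99 counts in control and 7, 1 and 0 in degenerated libraries. The embryonic heavy chain Myh3 and the extraocular heavy chain Myh13 had 0 counts throughout. Among stem cell and myogenic factor genes, Myf6, a transcription factor of mature fibres, had 8 counts in control replicate 3 and 0 elsewhere, Musk was at 0.44, and Pax7, the marker of muscle stem cells, had 0 counts in all libraries. The muscle energy list was led by Phka1, Aldoa and Cox8b, with log2 fold changes of 0.29, -0.06 and -1.13. Mb, myoglobin, had 18, 36 and 315 counts in control and 31, 33 and 10 in degenerated libraries, and its log2 fold change of -2.18 became -0.11 without control replicate 3.

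**Figure D3:**
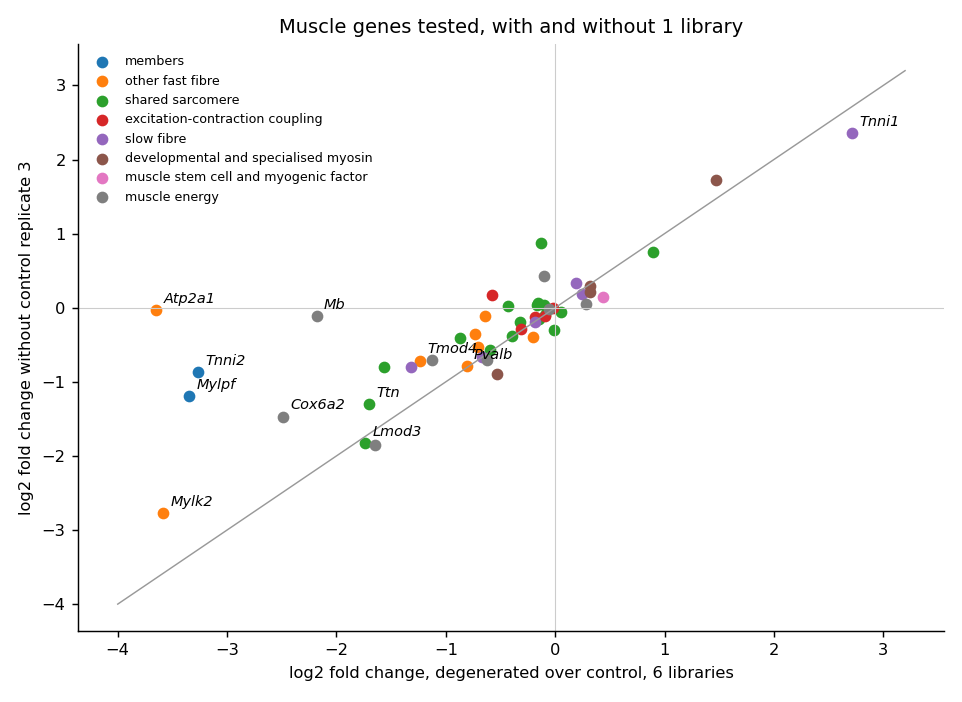
Fitted log2 fold change of degenerated over control of the tested members and other muscle genes, with all 6 libraries (horizontal axis) and without control replicate 3 (vertical axis), with colours for gene lists and a line of equal values. Tnni2, Mylpf, Atp2a1 and Mb lie far above the line, moving towards 0 when the library is left out, while Pvalb, Lmod3 and Tnni1 stay close to it.

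Lists of other cell types that the tissue can hold were set beside the members. The summed level of the members in control replicate 3 was 54.3-fold that of the next library. For the other muscle lists this ratio was 0.449 to 1.21. The highest of these was that of the other fast fibre list, whose sum was mostly Pvalb. Without Pvalb (a choice made after the data were seen) the list summed to 52.9, 64.0 and 238 CPM in the controls. In degenerated libraries it was 52.6, 42.0 and 41.2 CPM, and the ratio rose to 3.72. Single genes of the lists also shared the gap, with ratios of 37.0 for Srl, 22.3 for Atp2a1 and 14.3 for Myl1. The ratio was 1.12 for fat, 0.652 for tendon and cartilage and 0.437 for smooth muscle and pericytes. Plin4 made up 92.8 of the 104 CPM of the fat list in control replicate 3, and was the 1 fat gene highest there. The smooth muscle sum was highest in degenerated replicate 1, where Smtn had 131 and Pdgfrb 47.1 of its 184 CPM. Bone marrow and blood genes summed to 6473, 52260 and 26780 CPM in the controls, then 7624, 4900 and 20240 CPM in degenerated libraries, with the highest level in control replicate 2. Bone genes were 839, 1108 and 796 CPM in the controls, then 418, 301 and 517 CPM in degenerated libraries. The SGN list, which bears on the labelled cell type, was present in every library, at 11420 to 14820 CPM in the controls, then 6791 to 10210 CPM in degenerated libraries. Control replicate 3 was not the highest library for any of the marrow, bone, SGN, Schwann cell or hair cell sums. Whether these sums bear on the counts of the members was not tested.

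**Figure D4:**
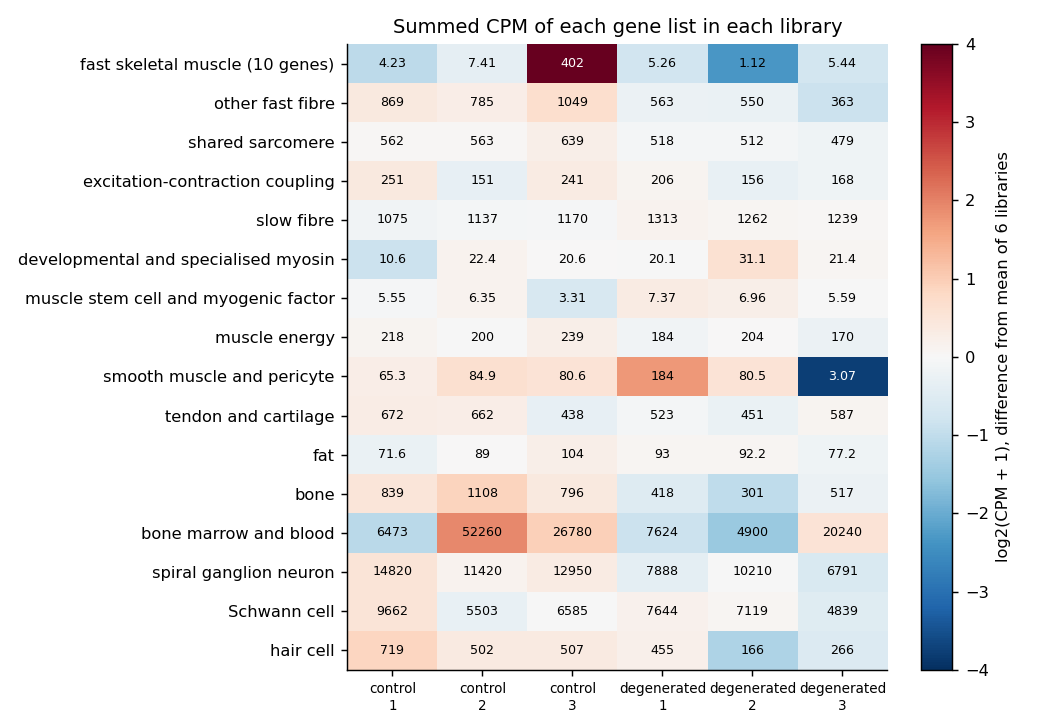
Summed CPM of each gene list in each library, printed in the cells, with colour for the log2(CPM + 1) difference from the mean of the 6 libraries. The 10 fast skeletal muscle genes are at 402 CPM in control replicate 3 and at 1.12 to 7.41 CPM elsewhere; the sums of the other fast fibre and slow fibre lists are mostly Pvalb and Atp2a2 with Tpm3, and the fast fibre list without Pvalb is 3.72-fold above the next library there.

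A wider search asked how many genes of the whole table were at least 5-fold above every other library in 1 library, with at least 20 counts there; this rule was chosen after the data were seen. In control replicate 3 there were 69 such genes (0.205% of 33676), among them 8 members and 8 other muscle genes, namely Atp2a1, Mb, Srl, Myl1, Actc1, Cacna1s, Lmod2 and Myl2. The remaining libraries had 31 to 52 such genes each, with 0 members and at most 1 other muscle gene, Jsrp1 in control replicate 2. Every library thus had such genes, and most of the muscle genes among them stood apart in control replicate 3. The 8 members there were chosen with their levels known. Most of the 69 genes were neither members nor in a muscle list, such as Gvin1 with 795 counts against 1 or 2 elsewhere.

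Genes whose pattern over the 6 libraries was most like the summed members were found by Pearson's r on the log2(CPM + 1) scale among the tested genes. These were Gm26683, Rtcb, Tecta, Rps27a, Eif3j1, Slc38a10, Gm26621, Nrg1, Gm11942 and Emc6, with r from 0.996 down to 0.977, and none was in a muscle list. Srl, Myl1, Actc1, Cacna1s, Lmod2 and Myl2 did not pass the filter on low counts, so the search could not return them. The likeness of the genes found rests on 1 library. Tecta, the tectorial membrane protein, had 21, 21 and 294 counts in control and 24, 0 and 23 in degenerated libraries, and Nrg1, the growth factor neuregulin, had 23, 16 and 642 and then 16, 7 and 10. By contrast Rtcb, an RNA ligase subunit, was 1.13-fold above the next library in control replicate 3.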

How the data were processed

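RNA of 3 control and 3 degenerated modiolus samples was compared, with each column matched to its sample by the title. The authors deposited 1 table of raw counts per Ensembl transcript, not normalized. The study's methods name Hisat2 and StringTie, and the submitters' processing notes name Bowtie 0.12.2 and the builds mm8 and mm10 without a role; whether StringTie made the deposited counts, and with which annotation, is not stated. The methods and the labels name different RNA extraction reagents. Of 65535 transcripts, 65272 matched GENCODE M21 (GRCm38) and 263, with 0.125% of counts, were left out. Counts of the listed transcripts, 46.0% of those annotated, were added up per gene, so a value covers the listed part of a gene. The design had assumed counts per gene.

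Members and lists were chosen with earlier results of these data known. Members are described by counts, CPM with TMM factors of 0.983 to 1.02, and exact intervals of count ratios. The test over all genes was the robust quasi-likelihood test of edgeR 4.0.16 (R 4.3.3) after filterByExpr and TMM, with no covariate and with Benjamini-Hochberg adjustment. DESeq2 1.42.0, limma-voom 3.58.1, RLE scaling, other filters, a replicate block and each library left out were alternatives. Named were all members, the genes of each muscle list past an adjusted p of 0.05 and otherwise its 3 most expressed genes, and the 10 genes most alike; other genes were named after their values were seen. Steps were tested on simulated data. Promoter windows came from RefSeq. Dixon's test was not applied to the 3 samples of each group.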

Additional observations from a re-analysis of the deposited data

How the results depend on the processing

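The 86.1-fold gap of control replicate 3 over the other libraries was 109 with the transcript of most counts only, and 72.0 without Ckm, 75.5 without Myh1, 66.5 without Myh4, 112 without Tnni2 and 127 without Mylpf. With another library left out it ranged from 72.3 to 101. The log2 ratio of the summed members ranged from -5.70 to -0.56 over the libraries left out, the latter without control replicate 3. Genes past the criteria, 385, became 785 with DESeq2 and 218 with the replicate block, and 258 to 497 with a library left out. At an adjusted p under 0.05 the 0 of edgeR's test became 383 with DESeq2 and 0 to 3 with a library left out (2 without degenerated replicate 2, 3 without degenerated replicate 3). Other muscle genes past the criteria, 3, became 6 with DESeq2, 1 with the replicate block (Tnni1), and 1 to 4 with a library left out; the 1 without control replicate 3 stayed 1 without a filter on low counts as well, an alternative chosen after the data were seen. Leaving out control replicate 2 left Tnni1, leaving out degenerated replicate 1 or 2 left Pvalb, and leaving out control replicate 3 left Lmod3, 1 gene each. DESeq2 called 2 of them at an adjusted p under 0.05, Pvalb (0.033) and Lmod3 (0.039). At 3-fold in place of 5-fold, 107 genes in place of 69 stood apart in control replicate 3, with 8 members in both. For each of these changes the cause was not tested. Deviations of same-numbered samples correlated at 0.16, -0.09 and 0.07, against -0.276 to 0.235 for differently numbered ones. With so few samples this cannot settle whether the numbers pair them. A count of 0 allows up to 3 counts, and 8 members did not pass the filter, Myh4, Ckm, Myh1 and Acta1 among them with their counts mostly in 1 library.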
